A study of Mus musculus with 23 samples.

Results

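The small proline-rich protein genes Sprr1a, Sprr1b, Sprr2d, Sprr2h and Sprr3 were followed through every probe set of the deposited log2 table that the array's annotation assigns to one of these symbols and to no other gene. A probe set is a group of short oligonucleotides on the array that read the RNA of one gene. The rule found 4 of 19645 probe sets, for 4 of the 5 listed genes and among 12106 genes with a probe set of their own. Sprr1a was read by probe set 1449133_at, Sprr1b by 1422672_at, Sprr2d by 1420771_at and Sprr3 by 1422401_at. Sprr2h had no probe set under its name in this table, and its RNA was not analysed here. In the RefSeq annotation (GRCm38.p6) Sprr1a spans chr3:92483954-92485881, Sprr1b chr3:92436808-92438817 and Sprr3 chr3:92456502-92458720, all on the minus strand, and Sprr2d spans chr3:92339140-92340873 on the plus strand.

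RNA came from whole dorsal skin of adult female mice of the outbred CD-1 stock, clipped and shaved in all groups. DMSO, the solvent, or 4 mg of AG825 in DMSO was put on the back 2 h before ultraviolet light (UV, 10 kJ/m2, mostly UVB with some UVA) or a sham exposure. AG825 is a small-molecule inhibitor of the kinase activity of Erbb2, a receptor of the epidermal growth factor receptor family. There were 4 arrays of DMSO sham skin, 4 of DMSO skin 6 h after UV, 4 of DMSO skin 24 h after UV, 4 of AG825 sham skin, 4 of AG825 skin 6 h after UV and 3 of AG825 skin 24 h after UV. Sham skin was taken at 6 h only, so the 24 h groups had no sham skin of their own hour. The labels do not say what the letters A to G that name arrays within a group mark, and they are used here as names. Values are given in letter order, which is A to D for DMSO sham, C, E, F and G for DMSO 6 h, A, B, C and E for DMSO 24 h, B to E for AG825 sham, A, B, D and E for AG825 6 h, and A to C for AG825 24 h. Whether each array is an animal of its own is not stated in the labels. The spread behind every p-value is therefore that of these samples and may be technical.

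Small proline-rich proteins are short, proline-rich proteins of the cornified envelope, the shell of cross-linked protein that replaces the plasma membrane of a dying keratinocyte. Transglutaminases join them to loricrin, involucrin and other partners, where they act as bridges. Their genes lie side by side in the epidermal differentiation complex. In normal interfollicular skin some members are scarce, and several are known to be induced in wounded, inflamed or irritated epidermis. AP-1, ETS, KLF and octamer-binding POU factors are known to act on their promoters.

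The promoters are shown because most windows of the second (Sprr2) subfamily hold an octamer that the Sprr1a, Sprr1b and Sprr3 windows lack. Windows of 250 bases before the start of transcription were read from RefSeq (GRCm38.p6) for 5 of 5 listed genes and for Sprr2i, a neighbouring member of the second subfamily. All lie on chromosome 3. The start that RefSeq's promoter table uses for Sprr1b lies inside the annotated span of that gene, so its window overlaps the end of the span. The windows are chr3:92485882-92486131 on the minus strand for Sprr1a, chr3:92438780-92439029 on the minus strand for Sprr1b, chr3:92338890-92339139 on the plus strand for Sprr2d, chr3:92385435-92385684 on the plus strand for Sprr2h, chr3:92407741-92407990 on the plus strand for Sprr2i and chr3:92458721-92458970 on the minus strand for Sprr3. Capitals mark matches to the AP-1 motif TGANTCA, the octamer ATTTGCAT bound by POU factors, and the TATA box TATAAA, each searched on both strands; no matches overlap.
Sprr1a: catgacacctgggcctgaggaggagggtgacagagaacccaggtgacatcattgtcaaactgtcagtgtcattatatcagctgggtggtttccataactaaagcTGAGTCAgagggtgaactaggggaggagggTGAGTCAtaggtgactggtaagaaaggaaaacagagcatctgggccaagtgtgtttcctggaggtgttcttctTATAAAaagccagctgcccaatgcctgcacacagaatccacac
Sprr1b: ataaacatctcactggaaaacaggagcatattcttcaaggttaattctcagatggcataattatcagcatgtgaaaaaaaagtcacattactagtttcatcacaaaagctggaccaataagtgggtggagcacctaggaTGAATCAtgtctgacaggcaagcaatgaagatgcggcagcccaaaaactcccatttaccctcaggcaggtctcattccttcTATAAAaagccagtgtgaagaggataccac
Sprr2d: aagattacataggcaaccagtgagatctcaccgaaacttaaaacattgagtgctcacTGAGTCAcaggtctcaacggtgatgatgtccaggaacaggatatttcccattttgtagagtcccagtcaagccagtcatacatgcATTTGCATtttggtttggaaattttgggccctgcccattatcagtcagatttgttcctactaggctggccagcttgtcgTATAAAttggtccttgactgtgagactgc
Sprr2h: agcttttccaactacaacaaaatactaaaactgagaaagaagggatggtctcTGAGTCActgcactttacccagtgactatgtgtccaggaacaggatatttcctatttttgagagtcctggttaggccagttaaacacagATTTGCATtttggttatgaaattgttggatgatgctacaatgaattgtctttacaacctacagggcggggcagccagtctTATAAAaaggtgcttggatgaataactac
Sprr2i: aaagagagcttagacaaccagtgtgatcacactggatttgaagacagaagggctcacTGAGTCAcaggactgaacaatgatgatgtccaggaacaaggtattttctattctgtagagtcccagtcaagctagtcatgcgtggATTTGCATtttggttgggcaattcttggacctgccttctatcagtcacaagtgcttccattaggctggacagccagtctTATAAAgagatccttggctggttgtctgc
Sprr3: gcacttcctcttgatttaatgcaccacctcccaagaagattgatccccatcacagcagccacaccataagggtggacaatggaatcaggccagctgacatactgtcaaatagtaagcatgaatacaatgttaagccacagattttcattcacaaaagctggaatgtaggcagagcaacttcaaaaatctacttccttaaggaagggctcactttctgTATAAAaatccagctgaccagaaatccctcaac

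The Sprr1a window held the AP-1 letters at -146 and -116, counted in bases from the start of transcription, and the Sprr1b window held them at -111. Neither held the octamer. The Sprr2d window held AP-1 letters at -193, the octamer at -108 and TATAAA at -29. The Sprr2h window had the same order, with matches at -198, -109 and -29. The Sprr2i window again had AP-1 letters at -193, the octamer at -108 and TATAAA at -29. Of the 3 motifs, the Sprr3 window held TATAAA only, at -33. Among 32851 RefSeq windows of this length, 6.75% held the AP-1 letters, 1.6% the octamer and 12.4% TATAAA. All 3 together stood in 14 windows (0.0426%), of which 7 belonged to the 10 Sprr2 windows read. The Sprr2 windows printed here are among these 7, and the rest of the 10 held none of the 3 motifs. A match is a run of letters and does not show binding.

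**Figure D1:**
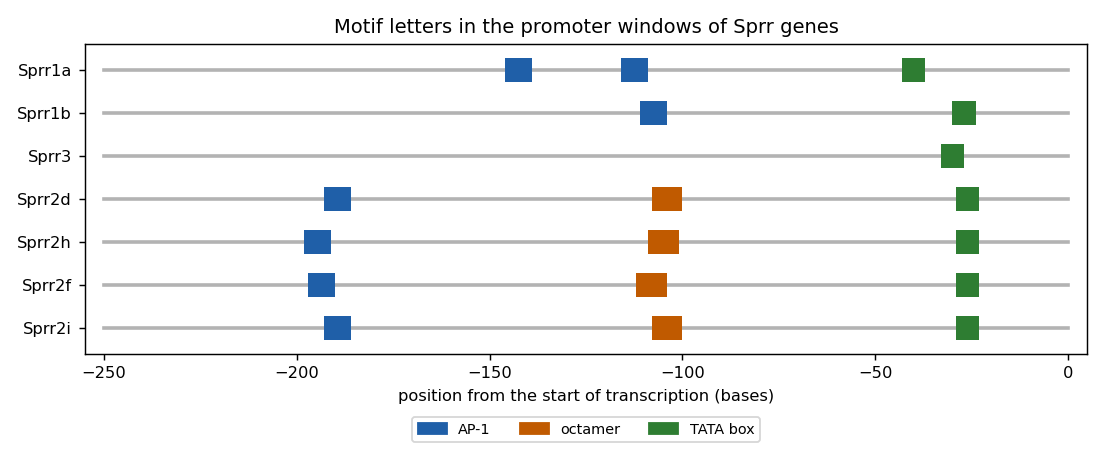
Positions of the AP-1 letters, the octamer and the TATA box (coloured boxes) in the 250 bases before the start of transcription of 7 Sprr genes; the x axis is the distance from the start in bases. The 4 Sprr2 genes drawn share 1 order of all 3 motifs, the 2 Sprr1 genes lack the octamer, and Sprr3 has the TATA box only.

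The labelled tissue was checked against markers. All 7 measured epidermal keratinocyte markers were called present on all 23 arrays, and their summed level per array lay between 14.41 and 15.83 (log2). Between 62.3% and 71.4% of probe sets were called present per array. DMSO sham array A and AG825 6 h array A stood apart from their groups in keratinocyte markers. Each had the lowest keratinocyte sum of its group, 15.19 on DMSO sham array A against 15.61 to 15.83 on the other 3 sham arrays, and 14.41 on AG825 6 h array A against 15.14 to 15.44 on the others. Over all probe sets these arrays did not stand apart. The mean correlation with the own group was 0.979 on DMSO sham arrays A and D alike. It was 0.966 on AG825 6 h array A and 0.967 on AG825 6 h array E. Both arrays A were picked after seeing the data. Values without both arrays are given beside the members' differences and group means that they move. In whole skin, fewer keratinocytes and less RNA per keratinocyte cannot be told apart. Markers of some other cell types moved after UV. At 6 h in DMSO skin 8 of 8 hair follicle and 4 of 4 melanocyte markers were lower (limma adjusted p under 0.05). Of all probe sets 10.7% were. In the same comparison 7 of 7 macrophage and general leukocyte markers were higher, against 7.77% of all probe sets. The part of this shift in the Sprr values was not tested.

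Sprr1a, a bridge protein of the first subfamily, was strongly expressed on every array and called present on all 23. In log2 units it read 12.19, 13.73, 13.88 and 13.75 on DMSO sham arrays A to D. At 6 h after UV in DMSO skin it read 13.60, 13.08, 12.88 and 13.35. All but 1 of the sham arrays lay above the whole 6 h group, and sham array A lay below it. At 24 h after UV in DMSO skin it read 13.03, 13.06, 13.60 and 13.02. In AG825 skin it read 13.73, 14.07, 13.72 and 13.69 after sham. With AG825 it read 11.37, 13.56, 13.18 and 13.86 at 6 h after UV, so that array A was far below the other 3. At 24 h with AG825 it read 13.19, 12.96 and 13.47, all below the 4 AG825 sham arrays. The highest value of any probe set on any array was 14.34, so the Sprr1a readings lay near the top of the scale.

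UV was the first comparison that the design asks about. The Sprr1a difference from sham in DMSO skin was -0.16 ± 0.40 (log2, SE, n = 4 and 4) at 6 h and -0.21 ± 0.40 at 24 h, with limma adjusted p of 0.823 and 0.876. With AG825 it was -0.81 ± 0.40 at 6 h (adjusted p = 0.342) and -0.59 ± 0.43 at 24 h (adjusted p = 0.423, n = 3 and 4). None of these passed the threshold of 0.05. Without DMSO sham array A alone the 6 h value in DMSO skin was -0.56 ± 0.37 and did not pass (adjusted p = 0.325). Without that array and AG825 6 h array A it was -0.56 ± 0.19 and passed (limma adjusted p = 0.0468). The 24 h value was then -0.61 (limma adjusted p = 0.0542). AG825 6 h array A is in neither group but enters the shared estimate of spread. Both arrays held the lowest Sprr1a reading of their group and were left out after seeing the data. Leaving them out narrows the Sprr1a spread by construction, so this pass is no support for a fall. Without the same arrays the 6 h value in AG825 skin was -0.27 (adjusted p = 0.623).

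Sprr1b encodes the second bridge protein of that subfamily and was also called present on all arrays. It read 10.49, 12.39, 12.68 and 12.83 on DMSO sham arrays A to D, with array A far below the rest. At 6 h after UV in DMSO skin it read 13.13, 11.98, 12.06 and 13.14, so that 2 arrays lay above and 2 below most of the sham arrays. The 24 h DMSO arrays read 11.80, 12.39, 12.10 and 12.61. With AG825 the sham arrays stood close together at 12.43, 12.36, 12.64 and 12.57. AG825 skin at 6 h read 10.21, 12.78, 12.41 and 12.84, again with array A lowest. At 24 h it read 12.53, 12.14 and 12.61, within the spread of the other groups. In DMSO skin the Sprr1b difference from sham was +0.48 ± 0.49 at 6 h and +0.13 ± 0.49 at 24 h, and -0.44 ± 0.49 and -0.07 ± 0.53 in AG825 skin. All 4 adjusted p-values were between 0.545 and 0.947. Without the arrays that stood apart, the sign turned in DMSO skin, to -0.06 at 6 h and -0.41 at 24 h, and in AG825 skin at 6 h, to +0.18.

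Sprr2d belongs to the second subfamily, whose members are known as stress-responsive envelope proteins. On the DMSO sham arrays it ran from 9.58 on A through 10.44 on B and 11.47 on C to 13.06 on D, the widest spread of any group of the measured members (SD = 1.50, n = 4). The 6 h DMSO arrays read 13.00, 11.83, 11.72 and 12.48. All 4 lay above sham arrays A, B and C and below sham array D. The 24 h DMSO arrays read 11.88, 12.31, 12.38 and 12.34 and showed the same arrangement. With AG825, sham skin read 11.13, 10.68, 11.44 and 12.86, with array E alone above 12. AG825 skin at 6 h read 10.22, 12.23, 11.90 and 12.74, and at 24 h it read 12.19, 12.11 and 12.64. The 24 h arrays of both treatments therefore sat within a narrow band, while both sham groups were spread out.

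The Sprr2d difference from sham in DMSO skin was +1.12 ± 0.59 (SE, n = 4 and 4) at 6 h and +1.09 ± 0.59 at 24 h. Neither passed, with adjusted p of 0.201 and 0.327. Both moved with the sham arrays that were included. With 1 array left out, only leaving out DMSO sham array D brought them past the threshold. Without DMSO sham array D the differences were +1.76 (adjusted p = 0.0256) and +1.73 (adjusted p = 0.0492). Without DMSO sham array A and AG825 6 h array A they were +0.61 (adjusted p = 0.433) and +0.57 (adjusted p = 0.656). In AG825 skin the difference was +0.25 ± 0.59 at 6 h (adjusted p = 0.872) and +0.79 ± 0.64 at 24 h (adjusted p = 0.473), and without the arrays that stood apart the 6 h value was +0.77 (adjusted p = 0.585).

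The sham arrays that were high for Sprr2d were also high for stress keratins and alarmins. The summed level of the 12 measured genes of that list was 13.38, 14.43, 14.97 and 15.92 on DMSO sham arrays A to D. On the AG825 sham arrays it was 14.72, 14.52, 14.45 and 15.76, the last on array E. The summed level of neutrophil markers was also highest on DMSO sham array D and AG825 sham array E, over narrower ranges of 9.41 to 9.88 and 9.63 to 9.91. The part of either in the Sprr2d values was not tested.

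Sprr3, known mainly from oral and oesophageal epithelium, was called absent on all 23 arrays. Its readings lay between 6.34 and 6.86. DMSO sham skin read 6.44, 6.55, 6.42 and 6.70, and DMSO skin at 6 h read 6.76, 6.86, 6.78 and 6.78, without overlap. The difference of +0.27 ± 0.08 passed (adjusted p = 0.0304), but both groups were below background, so no fold is given. It did not pass without DMSO sham array A, B or C or 6 h array E or G, each left out in turn (adjusted p of 0.0539 to 0.0993). On the dChip signal of the same arrays its adjusted p was 0.343, and in the fit of only the groups compared it was 0.114.

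**Figure D2:**
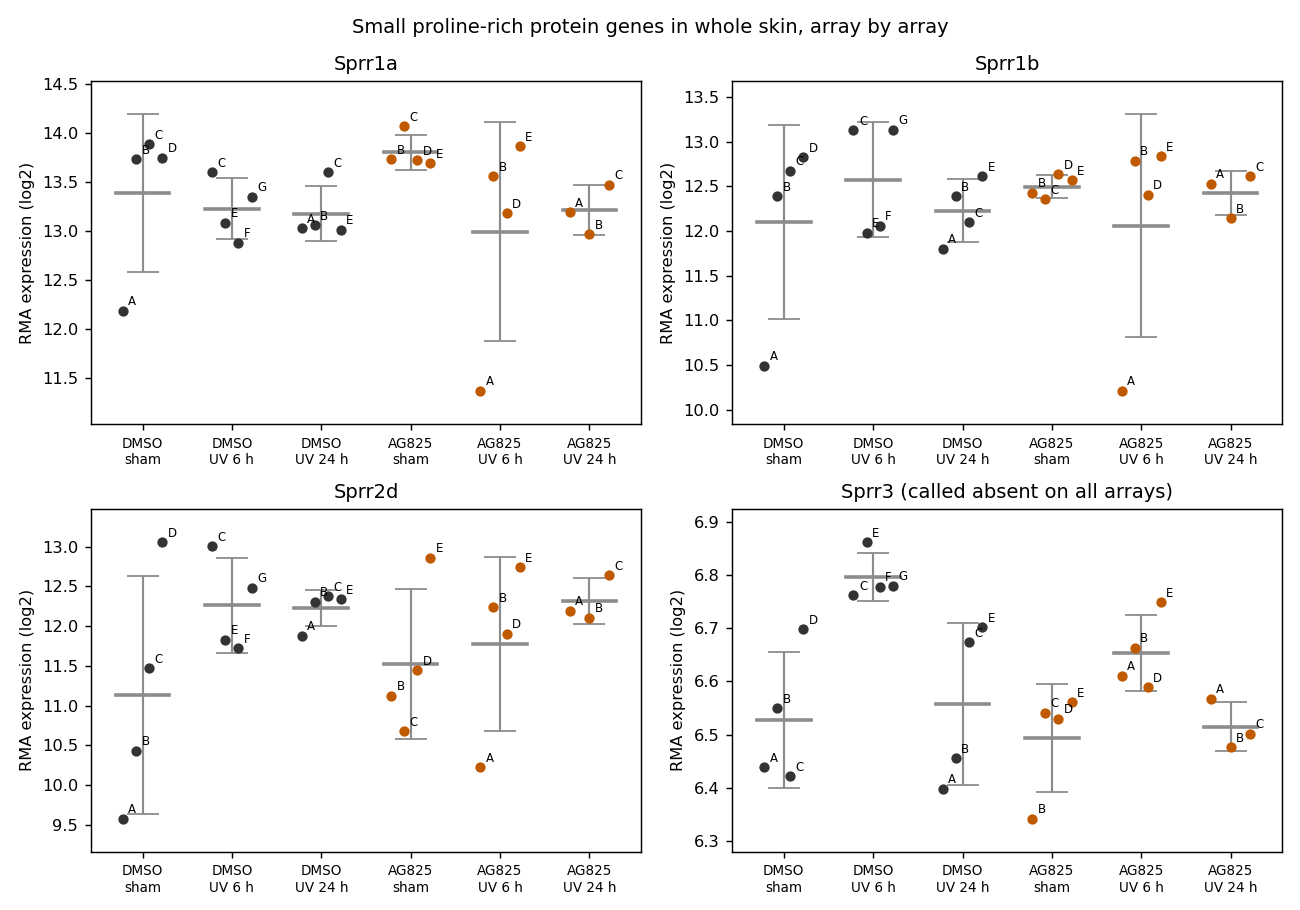
RMA log2 expression of Sprr1a, Sprr1b, Sprr2d and Sprr3 on each of 23 arrays (points with array letters), with the group mean (wide bar) and SD (whiskers), by drug and exposure. DMSO sham array A and AG825 6 h array A are the lowest arrays of their groups for Sprr1a, Sprr1b and Sprr2d, and Sprr3 stays between 6.34 and 6.86.

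Counted over the 4 member probe sets, 1 passed as higher at 6 h after UV in DMSO skin, the absent-called Sprr3, where 18.4% of all probe sets passed in either direction, 7.77% as higher and 10.7% as lower. The same comparison had 1 of 4 members without overlap of arrays, against 18.7% of all probe sets. Without the arrays that stood apart, a choice made after seeing the data, the count was also 1. The member was then Sprr1a, as lower, where 1932 of 19645 probe sets passed as lower. At 24 h after UV in DMSO skin 0 of 4 passed in limma, where 8.72% of all probe sets passed, 4.89% as higher and 3.83% as lower, and 0 of 4 were without overlap, against 14%. With AG825, 0 of 4 passed at 6 h and 0 of 4 at 24 h, against 2.73% (1.48% higher, 1.26% lower) and 4.85% (3.35% higher, 1.49% lower) of all probe sets. Sprr1a was the 1 member without overlap at 24 h with AG825, where 21.4% of all probe sets did not overlap, and Sprr3 was the 1 such member at 6 h with AG825, against 8.56%. At an unadjusted limma p under 0.05 the members counted 1 at 6 h in DMSO skin, against 31.3% of all probe sets. They counted 0 at 24 h in DMSO skin (20.2%), at 6 h with AG825 (15.2%) and at 24 h with AG825 (20.6%). The median difference of the members at 6 h in DMSO skin was +0.37, beside +0.01 over all probe sets. It was +0.08 at 24 h in DMSO skin, -0.14 at 6 h with AG825 and -0.02 at 24 h with AG825, beside -0.03, +0.03 and -0.08.

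The later against the earlier hour after UV was compared within each treatment. In DMSO skin the 24 h minus 6 h difference was -0.05 ± 0.40 for Sprr1a, -0.35 ± 0.49 for Sprr1b and -0.03 ± 0.59 for Sprr2d. In AG825 skin it was +0.21 ± 0.43, +0.37 ± 0.53 and +0.54 ± 0.64 in the same order. Of the 4 members, 0 passed in DMSO skin, where 0.0458% of all probe sets did (0.0255% higher, 0.0204% lower). With AG825 0 passed, where 0.229% of all probe sets did (0.163% higher, 0.0662% lower). Sprr3 was the 1 member without overlap in both, against 5.57% of all probe sets in DMSO skin and 26.2% with AG825. At an unadjusted limma p under 0.05 there was 1 member in DMSO skin, Sprr3, and 0 with AG825. Of all probe sets 13.6% were under it in DMSO skin and 25.2% with AG825. The AG825 values without the arrays that stood apart were -0.32 for Sprr1a, -0.25 for Sprr1b and +0.021 for Sprr2d.

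AG825 was compared with DMSO in skin of the same exposure. After sham the AG825 minus DMSO difference was +0.42 ± 0.40 for Sprr1a (95% interval -0.41 to 1.24), +0.40 ± 0.49 for Sprr1b (-0.63 to 1.43) and +0.39 ± 0.59 for Sprr2d (-0.84 to 1.62). The differences 6 h after UV were -0.23 ± 0.40, -0.52 ± 0.49 and -0.48 ± 0.59, with intervals from -1.06 to 0.59, from -1.54 to 0.51 and from -1.71 to 0.75. At 24 h they were +0.03 ± 0.43, +0.20 ± 0.53 and +0.09 ± 0.64. Of the 4 members 0 passed in each of the 3 comparisons, and 0% of all probe sets did. Arrays did not overlap for 1 member at 6 h, Sprr3, and for 0 after sham and at 24 h, where the shares of all probe sets were 2.04%, 0.896% and 16.1%. The members counted 0 at an unadjusted p under 0.05 in each of them as well. Each of these intervals for Sprr1a, Sprr1b and Sprr2d, at 24 h too, holds both no difference and a change of at least 0.5 in one direction. The sham differences were +0.017 for Sprr1a, -0.14 for Sprr1b and -0.13 for Sprr2d without the arrays that stood apart. In the same fit the 6 h differences turned positive, to +0.31 for Sprr1a, +0.10 for Sprr1b and +0.03 for Sprr2d.

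The test of the difference between the UV responses of the treatments gave no call either. At 6 h the drug by UV difference was -0.65 ± 0.56 for Sprr1a, -0.91 ± 0.70 for Sprr1b and -0.87 ± 0.83 for Sprr2d, with adjusted p of 0.968, 0.954 and 0.978. At 24 h it was -0.38 ± 0.58, -0.20 ± 0.73 and -0.30 ± 0.87. The members passing were 0 of 4 at 6 h, against 0% of all probe sets, and 0 of 4 at 24 h, against 0.00509%. At an unadjusted limma p under 0.05 the members counted 0 at both hours, against 6.15% of all probe sets at 6 h and 5.34% at 24 h. All 3 values turned positive at both hours without DMSO sham array A and AG825 6 h array A.

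The order of the group means differed between members. For Sprr1a it ran from AG825 sham (13.80 ± 0.18, SD, n = 4) over DMSO sham (13.39 ± 0.80) down to AG825 6 h (12.99 ± 1.12). For Sprr1b the highest mean was DMSO 6 h (12.58 ± 0.64) and the lowest AG825 6 h (12.06 ± 1.25). For Sprr2d all UV groups stood above both sham groups, from AG825 24 h (12.31 ± 0.29, n = 3) to DMSO sham (11.14 ± 1.50). For all 3 genes every pair of neighbours in these orders had overlapping arrays. The orders changed when array A was left out of DMSO sham and AG825 6 h (n = 3 each). AG825 6 h then had a mean of 13.53 for Sprr1a, above all other UV groups, and of 12.68 for Sprr1b, the highest of the 6 groups. DMSO sham then had means of 13.79 for Sprr1a, 12.63 for Sprr1b and 11.65 for Sprr2d, the last above AG825 sham and still below the UV groups.

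**Figure D3:**
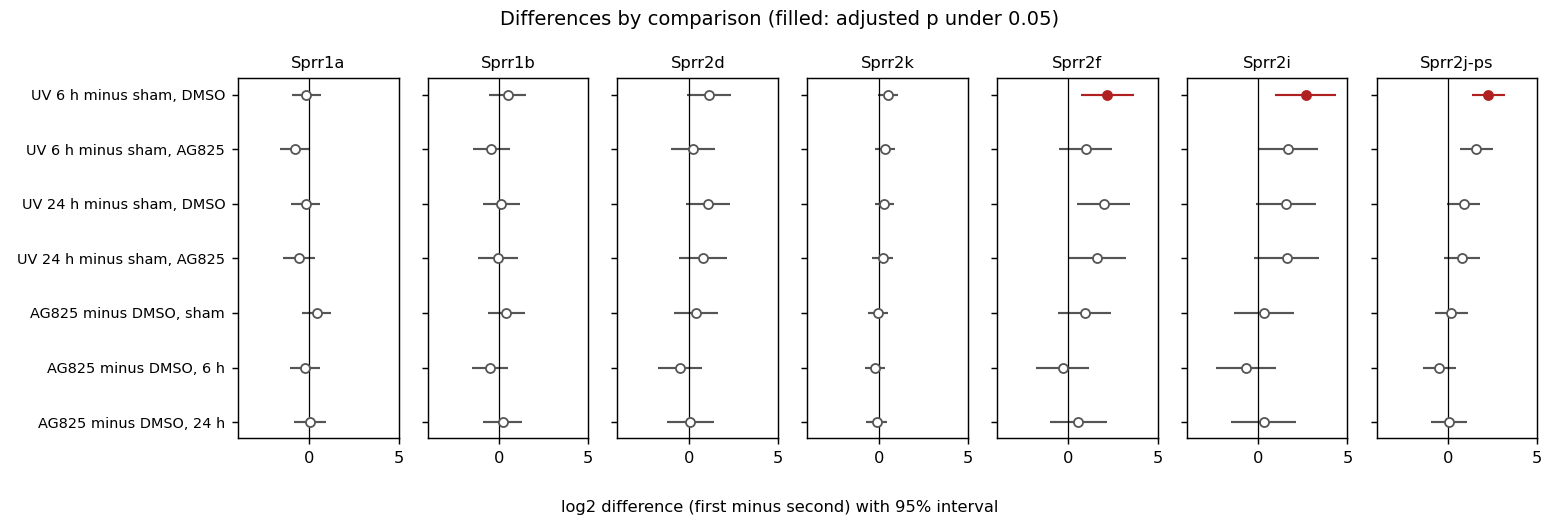
Log2 differences with 95% intervals for 7 Sprr probe sets (columns) in 7 comparisons (rows); filled points have a limma adjusted p under 0.05. The intervals of Sprr1a, Sprr1b and Sprr2d include 0 throughout, and the filled points are those of Sprr2f, Sprr2i and Sprr2j-ps at 6 h after UV in DMSO skin.

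Other genes of the second subfamily were measured by 4 more probe sets that name 1 gene. Their genes lie in the same run of chromosome 3 as Sprr2d: Sprr2f at chr3:92365187-92366442, Sprr2i at chr3:92407991-92409271, the transcribed pseudogene Sprr2j-ps at chr3:92418087-92419396 and Sprr2k at chr3:92432582-92433927. Sprr2 genes are close copies of one another, so a probe set can also read RNA of its neighbours and the assignment to one copy is uncertain. At 6 h after UV in DMSO skin 3 of these 4 passed as higher, where 7.77% of all probe sets did. At 24 h 0 of 4 passed, where 4.89% of all probe sets passed as higher. With AG825 0 of 4 passed at either hour, where 1.48% passed as higher at 6 h and 3.35% at 24 h. The list held 13 genes, and the other listed genes had no probe set of their own. A further probe set names Sprr2a1 and Sprr2a2 jointly and is not among the 4. At 6 h it differed from sham by +1.24 ± 0.65 in DMSO skin and -0.03 ± 0.65 with AG825. Neither passed (limma adjusted p of 0.201 and 0.988).

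Sprr2j-ps read 5.75, 5.80, 6.21 and 6.82 on the DMSO sham arrays, where it was called absent on all 4. At 6 h after UV it read 8.84, 7.75, 8.16 and 8.87. It was called present on all 4 by dChip and on 2 of 3 by the deposited GCOS calls. The groups did not overlap. The difference was +2.26 ± 0.44 (adjusted p = 0.00117), with a 95% interval from 1.34 to 3.18. As a point estimate this is 4.79-fold, and it is uncertain because the sham arrays were called absent. The difference passed with any 1 of the 23 arrays left out (+2.11 to +2.49) and under all other settings tried. With AG825 it read 5.79, 6.00, 6.68 and 6.80 after sham and 6.32, 8.12, 8.05 and 9.13 at 6 h. That difference of +1.59 ± 0.44 did not pass (adjusted p = 0.0593). At 24 h the differences were +0.90 ± 0.44 with DMSO and +0.78 ± 0.48 with AG825, and neither passed (adjusted p of 0.267 and 0.347).

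Sprr2i read 7.07, 7.20, 8.91 and 11.38 on the DMSO sham arrays and 11.97, 10.49, 11.13 and 11.58 at 6 h after UV. Sham array D thus lay inside the 6 h group. The difference was +2.65 ± 0.81 (adjusted p = 0.0259). It fell to +2.13 without the arrays that stood apart (adjusted p = 0.0517), and it did not pass without DMSO sham array A or B or 6 h array C or G. The adjusted p was also above the threshold on the dChip signal (0.0595), on the GCOS signal (0.0575 and 0.0696 with pseudocounts of 16 and 1) and in the fit of only the groups compared (0.0544). Sprr2f read 6.47, 7.86, 9.18 and 10.96 on the DMSO sham arrays and 11.49, 10.52, 10.23 and 10.96 at 6 h. Its difference was +2.18 ± 0.71 (adjusted p = 0.0363), and +1.46 without the arrays that stood apart (adjusted p = 0.0849). It did not pass either without sham array A or B or 6 h array C, E or G, nor in the fit of only the groups compared (adjusted p = 0.0898). At 24 h in DMSO skin the differences were +1.57 ± 0.81 for Sprr2i (adjusted p = 0.293) and +1.98 ± 0.71 for Sprr2f (adjusted p = 0.0947). Without DMSO sham array D, the high sham array, both passed at 24 h, at +2.49 (adjusted p = 0.0344) and +2.76 (adjusted p = 0.0091). Sprr2k differed by +0.52 ± 0.26 at 6 h (adjusted p = 0.183). When the arrays that stood apart were left out, 1 of the 4 passed at 6 h in DMSO skin and 1 of 4 at 6 h with AG825. Of 19645 probe sets, 1356 and 326 passed as higher in the same order.

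**Figure D4:**
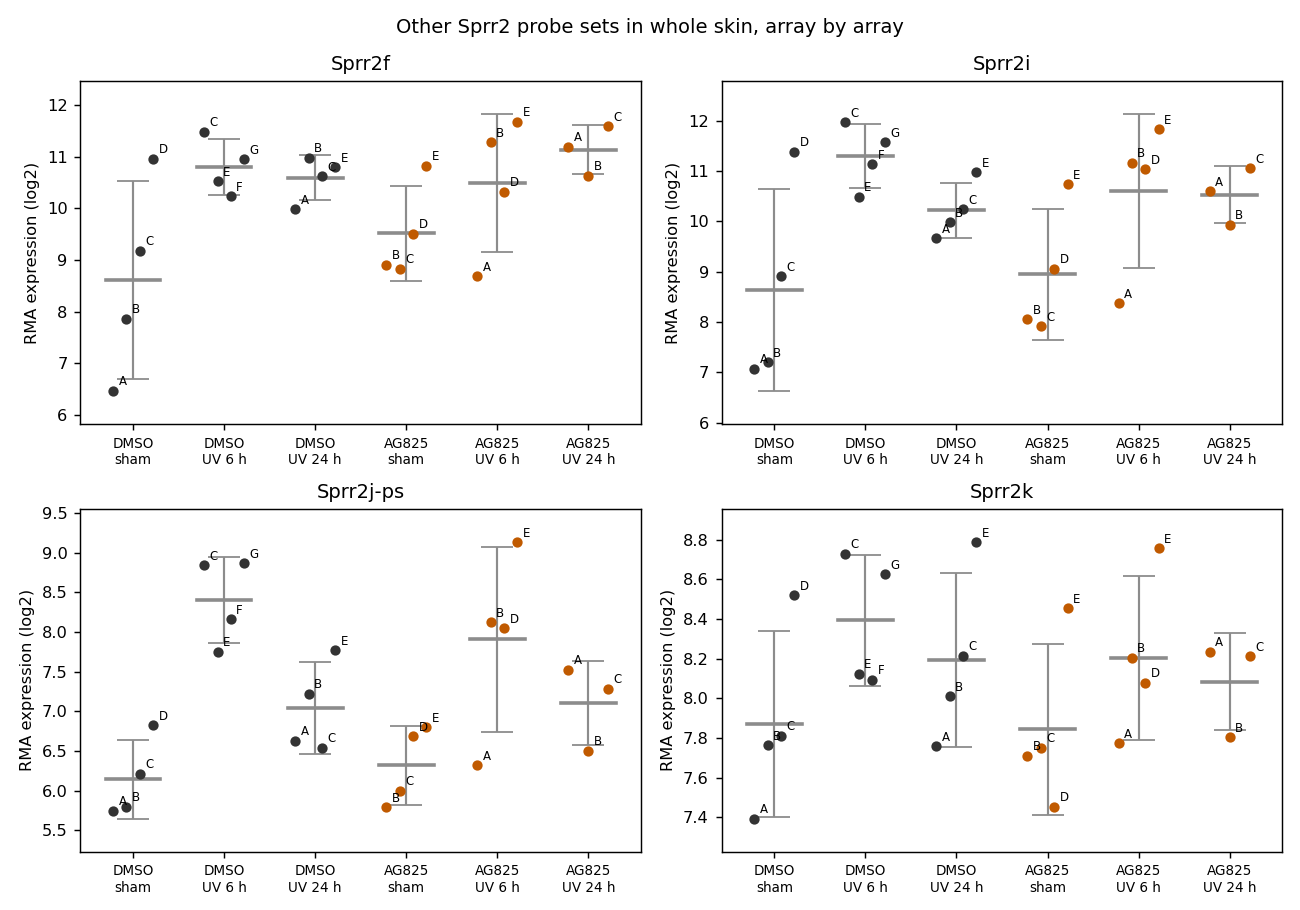
RMA log2 expression of Sprr2f, Sprr2i, Sprr2j-ps and Sprr2k on each of 23 arrays (points with array letters), with the group mean (wide bar) and SD (whiskers). DMSO sham array D and AG825 sham array E are the highest arrays of their groups, and only for Sprr2j-ps do the DMSO sham and 6 h arrays not overlap.

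The drug comparisons of these 4 probe sets gave 0 calls. Of all probe sets 0% passed in AG825 minus DMSO at each exposure and in drug by UV at 6 h. In drug by UV at 24 h 0.00509% passed. The AG825 minus DMSO difference 6 h after UV was -0.31 ± 0.71 for Sprr2f, -0.69 ± 0.81 for Sprr2i, -0.50 ± 0.44 for Sprr2j-ps and -0.19 ± 0.26 for Sprr2k. The drug by UV difference at 6 h was -0.67 ± 0.63 for Sprr2j-ps (adjusted p = 0.976). So the pass in DMSO skin and the miss in AG825 skin do not show a difference between the treatments.

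Other genes of the cornified envelope and the cornified layer were followed as a list of 27 genes, of which 19 were measured. The list holds loricrin and involucrin but was not limited to proteins that Sprr proteins are cross-linked to. In DMSO skin 6 fell and 0 rose at 6 h after UV, and 10 fell and 0 rose at 24 h, where 10.7% and 3.83% of all probe sets passed as lower. The median difference over the list at 24 h was -0.99, beside -0.03 over all probe sets. At 6 h the falls with the smallest adjusted p were Scel, encoding sciellin (-0.96 ± 0.23, adjusted p = 0.00524), Ppl, encoding periplakin (-0.81 ± 0.23, adjusted p = 0.0171), Ivl, encoding involucrin (-1.13 ± 0.32, adjusted p = 0.0183), and Evpl, encoding envoplakin (-0.91 ± 0.27, adjusted p = 0.0208). At 24 h Lor, encoding loricrin, the main protein of the envelope, fell by 1.23 ± 0.21 (adjusted p = 0.000722). The late envelope gene Lce1a2 fell by 1.76 ± 0.29 (adjusted p = 0.000508), the related Lce1a1 fell by 2.19 ± 0.44 (adjusted p = 0.00266), and Scel fell by 1.10 ± 0.23 (adjusted p = 0.00333). In AG825 skin 4 of the 19 fell at 6 h and 5 at 24 h, where 1.26% and 1.49% of all probe sets passed as lower. Without the arrays that stood apart the counts were 6 and 13 in DMSO skin and 2 and 7 with AG825. In that fit 1932 and 607 of 19645 probe sets passed as lower in DMSO skin, and 178 and 336 with AG825. Some keratinocyte markers moved beside these genes: in DMSO skin 2 of 7 fell at 6 h, Krt5 and Trp63, and 2 at 24 h, Krt1 and Krt10. At 24 h Krt1 fell by 1.36 ± 0.41 and Krt10 by 1.16 ± 0.36. No other marker passed there, with Krt5 at -0.17 ± 0.13 and Krt14 at +0.18 ± 0.20. The summed marker level at 24 h, 14.89 to 15.06, lay below that of every DMSO sham array. The part of keratinocyte content in these values was not tested.

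Of the cross-linking transglutaminases 3 of 4 were measured. Tgm1, the main keratinocyte enzyme of the envelope, differed from sham in DMSO skin by +0.08 ± 0.45 at 6 h and -0.27 ± 0.45 at 24 h (adjusted p of 0.921 and 0.846). Tgm3 differed by -0.65 ± 0.43 at 6 h (adjusted p = 0.316). Tgm2, a widely expressed enzyme not specific to keratinocytes, rose by 1.48 ± 0.24 at 6 h (adjusted p = 0.000260) and by 1.33 ± 0.24 at 24 h (adjusted p = 0.00119), and it also passed as higher in AG825 skin at both hours.

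Transcription factors of the families known to act on SPRR promoters numbered 15, all measured. At 6 h after UV in DMSO skin 4 rose and 1 fell, where 7.77% of all probe sets passed as higher and 10.7% as lower. Fos, the AP-1 subunit, rose by 1.57 ± 0.21 (adjusted p = 2.62e-05), Fosl1, another AP-1 subunit, by 1.08 ± 0.17 (adjusted p = 0.000153), and Ets1 by 0.99 ± 0.22 (adjusted p = 0.00326). Sp1, a zinc-finger factor, fell by 0.84 ± 0.24 (adjusted p = 0.0160). At 24 h in DMSO skin Fos, Fosl1 and Ets1 were higher and Pou2f3, an octamer-binding factor of the epidermis, fell by 0.41 ± 0.11 (adjusted p = 0.0229). At 24 h 4.89% of all probe sets passed as higher and 3.83% as lower. In AG825 skin 2 were higher at 6 h, Fos and Fosl1, where 1.48% of all probe sets passed as higher. At 24 h with AG825 3 were higher and 2 lower, where the shares of all probe sets were 3.35% and 1.49%. For DMSO skin at 6 h, 3 rose and 1 fell without the arrays that stood apart, where 1356 of 19645 probe sets passed as higher and 1932 as lower.

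Stress keratins and alarmins, which mark activated epidermis, counted 12 measured of 14 listed genes. At 6 h in DMSO skin 3 rose and 0 fell, where 7.77% of all probe sets passed as higher: S100a9 by 3.53 ± 0.93 (adjusted p = 0.0112), Lcn2 by 3.13 ± 0.65 (adjusted p = 0.00195) and Slpi by 1.71 ± 0.41 (adjusted p = 0.00568). All 3 are secreted or antimicrobial proteins that neutrophils also make, and 5 of 5 neutrophil markers rose in the same comparison, with summed levels of 9.41 to 9.88 in DMSO sham and 11.61 to 12.07 at 6 h. Of the 5 neutrophil markers 4 rose without the arrays that stood apart. Their part in the result was not tested. The keratins of the list gave no call: Krt6a differed by +0.32 ± 0.43, Krt6b by +0.74 ± 0.47 and Krt16 by +0.50 ± 0.57. In the fit that leaves out the arrays that stood apart 2 of the 12 rose at 6 h in DMSO skin, where 1356 of 19645 probe sets passed as higher.

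The members were set against each other over the 23 arrays as a description. Arrays share their RNA, labelling and skin make-up between genes, so these values are not independent. Sprr1a and Sprr1b had a Pearson r of 0.84, Sprr1b and Sprr2d 0.73, and Sprr1a and Sprr2d 0.44. Without DMSO sham array A and AG825 6 h array A the same values were 0.46, 0.42 and -0.18, so the values were lower without these 2 arrays for all 3 pairs.

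The genes of other families most like each member differed from member to member, also between Sprr1a and Sprr1b of the same subfamily. For Sprr1a they were Crct1, a gene of the same chromosomal cluster (r = 0.95), Cdsn, encoding corneodesmosin of the cornified layer (0.95), and Klk10, a kallikrein-related peptidase (0.91). These were 0.90, 0.87 and 0.75 without the arrays that stood apart. For Sprr1b they were Krtdap, encoding keratinocyte differentiation-associated protein (0.92), Teddm3 (0.88) and Krt16, a stress keratin (0.88), and without those arrays 0.64, 0.69 and 0.66. For Sprr2d they were Glrx, encoding glutaredoxin (0.94), Lce3a, a late envelope gene (0.93), and Defb3, encoding a beta-defensin (0.93), and these stayed at 0.90, 0.94 and 0.94. For Sprr3 they were Cyp8b1 (0.83), Slc7a2 (0.81) and Pigc (0.81), in a probe set that never rose above background. The choice was made over all genes of the array, so a high r is what chose them.

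Defb3 followed Sprr2d array by array. It read 5.78, 6.53, 7.72 and 11.91 on DMSO sham arrays A to D, in the same order as Sprr2d. On the AG825 sham arrays it read 6.83, 6.01, 6.39 and 11.58, again with array E alone high. At 6 h after UV in DMSO skin it read 10.98, 9.76, 9.18 and 10.41, above 3 of the 4 sham arrays. Its difference from sham was +2.09 ± 1.15 at 6 h in DMSO skin and did not pass (adjusted p = 0.222).

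**Figure D5:**
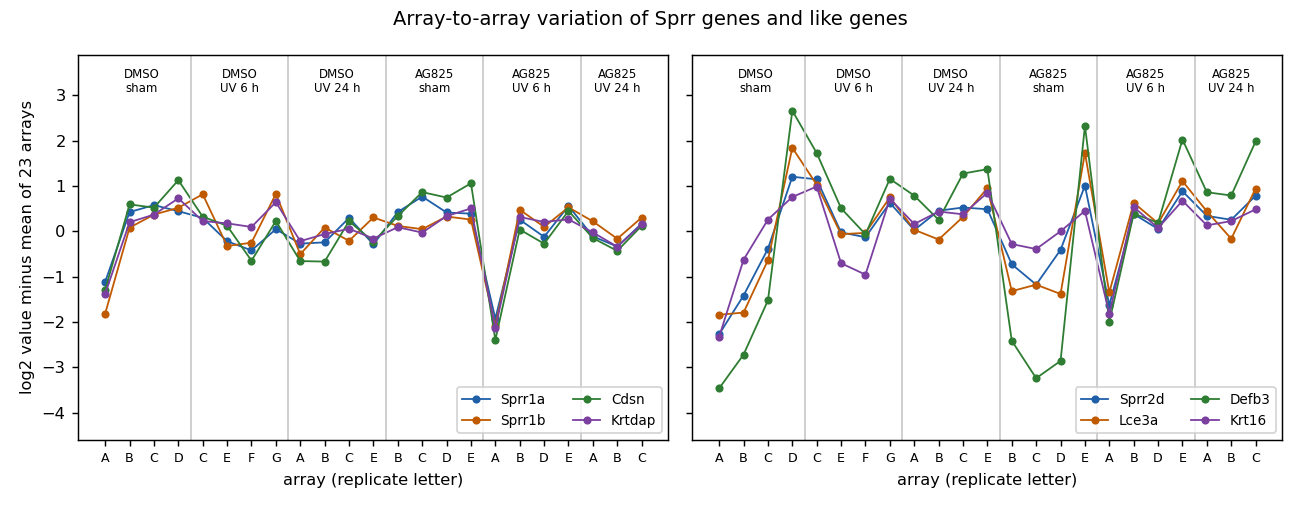
Log2 values on each of 23 arrays after subtracting the gene's mean over the arrays, with Sprr1a, Sprr1b, Cdsn and Krtdap on the left and Sprr2d, Lce3a, Defb3 and Krt16 on the right; vertical lines part the 6 groups. The left genes share low values on DMSO sham array A and AG825 6 h array A, and on the right Sprr2d, Lce3a and Defb3 are also high on DMSO sham array D and AG825 sham array E.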

How the data were processed

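Expression was measured on 23 Affymetrix arrays. The main values are the deposited log2 expression values of 19645 probe sets; the submitters' processing notes name RMA as the tool, without a version. Deposited tables of dChip and GCOS signal on a linear scale, with detection calls, served for present calls and as alternatives, per the file headers; the GCOS table held 22 arrays, without DMSO 6 h array G. The normalization of RMA gives all arrays the same distribution, so a difference is relative to the other probe sets of an array. Signal over background and the number of arrays limit the precision. A model with 1 mean for each of 6 groups was fitted to all probe sets (limma 3.58.1, R 4.3.3, lmFit and eBayes), and p-values of each of 11 comparisons were adjusted by Benjamini-Hochberg over 19645 probe sets, two-sided, with a threshold of 0.05; errors are limma standard errors (SE) unless SD is named. Adjusted p-values in the text come from this model. The step was tested on simulated data. Where a listed gene had several probe sets, the brightest on average over the 23 arrays stood for it. Named genes are the members, the 3 genes of other families with the highest Pearson r to each member, and from each list up to 4 genes of smallest adjusted p; Tgm1, Tgm3, the stress keratins and the other genes named without a pass were named for their role. The members and lists were chosen with earlier results of these data known. Alternatives were the dChip signal (floor of 16), the GCOS signal (pseudocounts of 16 and 1), probe sets present on at least 3 arrays, only the groups compared, the replicate letter as a block, array weights and each array left out. Leaving out DMSO sham array A and AG825 6 h array A together was chosen after seeing the data. Of the probe sets, 17825 named 1 gene, 445 several and 1375 none. A probe set that names Sprr2a1 and Sprr2a2 jointly was not counted with the members or the lists. Promoters are RefSeq's (GRCm38.p6), 250 bases before the start.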

Additional observations from a re-analysis of the deposited data

Results flagged for a closer look

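Of 20 groups of 4 arrays tested over the 4 members, 6 held an array whose gap to the nearest of the others exceeded Dixon's critical share of the group's range; chance flags about 1 in 20 groups. Sprr1a read 12.19 on DMSO sham array A, where the other 3 arrays read 13.73 to 13.88. Sprr1b read 10.21 on AG825 6 h array A, where the others read 12.41 to 12.84. These are the arrays with the lowest keratinocyte marker sums of their groups, and the part of keratinocyte content was not tested. Sprr1a read 13.60 on DMSO 24 h array C, above the 13.02 to 13.06 of the others, and 14.07 on AG825 sham array C, above 13.69 to 13.73. Sprr2d read 11.88 on DMSO 24 h array A, below 12.31 to 12.38. Sprr3, called absent throughout, read 6.34 on AG825 sham array B, below 6.53 to 6.56.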

How the results depend on the processing

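The number of member probe sets past the threshold at 6 h after UV in DMSO skin was 1, and 2 with array weights. It was 0 on the dChip signal and on the GCOS signal with either pseudocount. It was also 0 in the fit of only the groups compared and with the replicate block. Among probe sets present on at least 3 arrays the number was 0 as well. That filter removes Sprr3, the only member that passed, so Sprr3 could not pass there. At 24 h with AG825 the number was 0, and 1 with array weights. With each array left out it ranged from 0 to 2 at 6 h and 0 to 1 at 24 h in DMSO skin, and was 0 in the other 9 comparisons. The cause of these changes was not tested.

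Signs turned for differences called under neither setting. On the dChip signal Sprr1a was 0.039 at 6 h after UV in DMSO skin, and AG825 minus DMSO at 24 h was -0.021 for Sprr1a and -0.021 for Sprr2d; on the GCOS signal the first was 0.23 with either pseudocount. With the replicate block, 24 h minus 6 h in DMSO skin was 0.16 for Sprr1a, 0.026 for Sprr1b and 0.30 for Sprr2d, AG825 minus DMSO was 0.038 at 6 h for Sprr1a and -0.017 after sham for Sprr2d, Sprr1b at 24 h with AG825 was 0.43, and drug by UV at 24 h was 0.25 for Sprr1b and 0.35 for Sprr2d. With array weights, Sprr1a was -0.0039 for 24 h minus 6 h with AG825, and Sprr1b was 0.035 at 24 h with AG825 and 0.025 for drug by UV at 24 h. Without DMSO sham array A and AG825 6 h array A, beside the values in the text, AG825 minus DMSO after sham was -0.14 for Sprr1b and -0.13 for Sprr2d. Other such values were -0.32 and -0.25 (24 h minus 6 h with AG825, Sprr1a and Sprr1b), 0.31, 0.10 and 0.034 (AG825 minus DMSO at 6 h, Sprr1a, Sprr1b and Sprr2d), -0.056, -0.41 and 0.18 (Sprr1b after UV at 6 h and 24 h in DMSO skin and at 6 h with AG825), 0.29, 0.24 and 0.16 (drug by UV at 6 h, in the order Sprr1a, Sprr1b, Sprr2d) and 0.017, 0.34 and 0.21 (at 24 h).

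With each array left out, Sprr1a ranged from -0.56 to 0.0070 at 6 h after UV in DMSO skin, -0.19 to 0.071 and -0.32 to 0.50 for 24 h minus 6 h with DMSO and AG825, -0.52 to 0.31 and -0.10 to 0.17 for AG825 minus DMSO at 6 h and 24 h, and -0.55 to 0.017 for drug by UV at 24 h. Sprr1b ranged from -0.056 to 0.72 and -0.41 to 0.37 after UV in DMSO skin at 6 h and 24 h, -0.70 to 0.18 and -0.16 to 0.073 with AG825, -0.25 to 0.63 for 24 h minus 6 h with AG825, -0.14 to 0.64 and -0.77 to 0.10 for AG825 minus DMSO after sham and at 6 h, and -0.44 to 0.34 for drug by UV at 24 h. Sprr2d ranged from -0.072 to 0.77 at 6 h with AG825, -0.21 to 0.22 for 24 h minus 6 h in DMSO skin, -0.13 to 1.03, -0.80 to 0.034 and -0.077 to 0.19 for AG825 minus DMSO (sham, then 6 h, then 24 h), and -0.95 to 0.21 for drug by UV at 24 h.

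The labels do not say what the letters that recur between groups mark. Deviations from the group means had a median correlation of 0.17 (-0.23 to 0.67) over 35 same-letter pairs, 21 of them over 0.1, and of -0.03 over 185 other pairs, 62 of them over 0.1. Same-letter pairs were thus more alike by these values, and 10 of 23 arrays were most like one of their own letter. As the labels state no pairing, the letters entered only as a block in an alternative fit. Whether the letters pair arrays was not tested, and these values cannot settle it. The block lowered the count over all probe sets at 6 h in DMSO skin from 3623 to 2411. Among the settings other than leaving out 1 array, further counts over all probe sets that moved by more than 1.5 times were, at 6 h in DMSO skin, 2298 (GCOS, pseudocount 1) and 5495 (array weights), at 24 h 1006 and 2802 in place of 1714, at 6 h with AG825 335, 241 (only the groups compared) and 1022 in place of 537, and at 24 h with AG825 554 and 452 (GCOS, pseudocounts 16 and 1) and 9029 (array weights) in place of 952. For 24 h minus 6 h, 9 probe sets in DMSO skin became 15 (dChip), 48 (present on at least 3 arrays), 1 (only the groups compared), 0 (block), 720 (array weights) and 62 (without DMSO sham array A and AG825 6 h array A), and 45 with AG825 became 21, 3 and 6 (dChip, GCOS with pseudocounts 16 and 1), 0, 251, 3543 and 0. For AG825 minus DMSO, 0 became 2 and 3 at 6 h (GCOS) and 6 (dChip), 1 (present on at least 3 arrays), 1944 (array weights) and 1 (without the same 2 arrays) at 24 h. For drug by UV, 0 at 6 h became 2 on the GCOS signal and 1 with the block, and 1 at 24 h became 124 with array weights and 0 on the GCOS signal, with only the groups compared, with the block and without the same 2 arrays. Array weights, under which AG825 24 h array A alone weighed 7.65, also brought Sprr2d at 6 h in DMSO skin (1.50, adjusted p = 0.0405), Sprr1a at 24 h with AG825 (-0.66, adjusted p = 0.0414), Sprr2k at 6 h (0.69, adjusted p = 0.0314) and Sprr2f at 24 h (2.29, adjusted p = 0.00891) in DMSO skin past the threshold. With 1 array left out, counts over all probe sets ranged from 975 to 1934 at 24 h in DMSO skin, 258 to 602 at 6 h and 333 to 1670 at 24 h with AG825, 0 to 203 and 0 to 89 for 24 h minus 6 h with DMSO and AG825, 0 to 21 and 0 to 2 for AG825 minus DMSO at 6 h and 24 h, and 0 to 1 for drug by UV at 24 h.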
